A study of Rattus norvegicus with 10 samples.

Results

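Claudins and their partners in the junctions between epithelial cells were followed in DMBA-induced rat mammary tumours. The 10 genes were Cldn1, Cldn3, Cldn4, Cldn7, Ocln, Tjp1, Cdh1, Cdh3, Epcam and Dsp, chosen by name from the tight junction, the adherens junction and their neighbours, out of 14217 genes with an array probe set of their own. Each gene was read by the probe set annotated to it alone that had the highest mean signal over all arrays, and all 10 passed the filter on dim probe sets, as did 10793 genes in all. Some have further probe sets, 16 for the 10 genes together, of which 13 passed the filter.

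The arrays came from 5 mammary tumours, of female Sprague-Dawley rats, an outbred strain. Every tumour had been induced with 100 mg/kg of the carcinogen 7,12-dimethylbenz(alpha)anthracene (DMBA) by mouth, the tumours are named 31D3, 32D1, 37I1, 50I1 and 52I4, and the labels list no other treatment, so there is no untreated group. Each was read once as a needle biopsy of 0.7 cm by 2.5 mm, taken at 12 weeks of age at a tumour volume of 2 cm3, and once as the total tumour at sacrifice, at 19 weeks. Age, moment and way of sampling therefore cannot be told apart. All values are log2 signals of an Affymetrix rat array, where 1 unit is a 2-fold step. The number of arrays (10) limits the precision.

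Tight junctions seal the space between neighbouring epithelial cells. Claudins and occludin are their membrane-spanning strands, and the scaffold ZO-1, encoded by Tjp1, ties the strands to actin. Adherens junctions hold cells together through cadherins, whose tails bind catenins. Desmosomes hold cells together through cadherins of their own, and their plaque protein desmoplakin anchors keratin filaments. In the mammary gland E-cadherin is typical of luminal cells and P-cadherin of the basal, myoepithelial layer, and loss of E-cadherin and of claudins is a known feature of mesenchymal transition in carcinoma.

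The tissue carried the markers of its label. The 4 luminal keratins had a mean log2 signal from 11.33 to 12.20 over the 10 arrays, and the basal and myoepithelial list, 8 genes with Krt5, Krt14 and Acta2 among them, one from 10.72 to 11.43. Other cells were present in uneven amounts. The fibroblast and matrix list (13 genes) ran from 8.39 in biopsy 37I1 to 11.47 in biopsy 50I1 and from 10.17 to 11.30 in the total tumours, and the leukocyte list (12 genes) from 7.64, again in biopsy 37I1, to 10.06 in the biopsies and from 8.45 to 10.68 in the total tumours. Skeletal muscle actin, Acta1, read 11.93 in biopsy 37I1 and 9.48 in its total tumour, 8.13 in biopsy 50I1 and at most 4.91 in the other 7 arrays, so these 3 arrays stand apart. In bulk tissue, fewer cells of a type and less RNA per cell cannot be told apart.

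None of the 10 junction genes differed between biopsy and total tumour beyond the spread of the paired arrays. In limma with the tumour as a block, 0 of 10 passed an adjusted p of 0.05, with adjusted p from 0.872 to 0.996, against 0 of 18625 probe sets (0%) on the whole array. At an unadjusted p under 0.05, limma called 0 of the 10 genes and 450 of the 10793 genes tested (4.17%), and the methods' paired t-test called 0 of the 10. Mean signals were higher in the total tumours for 5 genes and lower for 5, with a median difference of -0.01, beside 0.00 over all genes tested. The median size of the difference, whatever its sign, was 0.0995 for the 10 genes and 0.105 for all genes tested. Biopsy and total tumour values overlapped for all 10 genes, while 45 of all genes tested (0.417%) had groups that did not overlap. None of the 10 went the same way in 5 of 5 pairs, as 629 genes (5.83%) did.

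**Figure D1:**
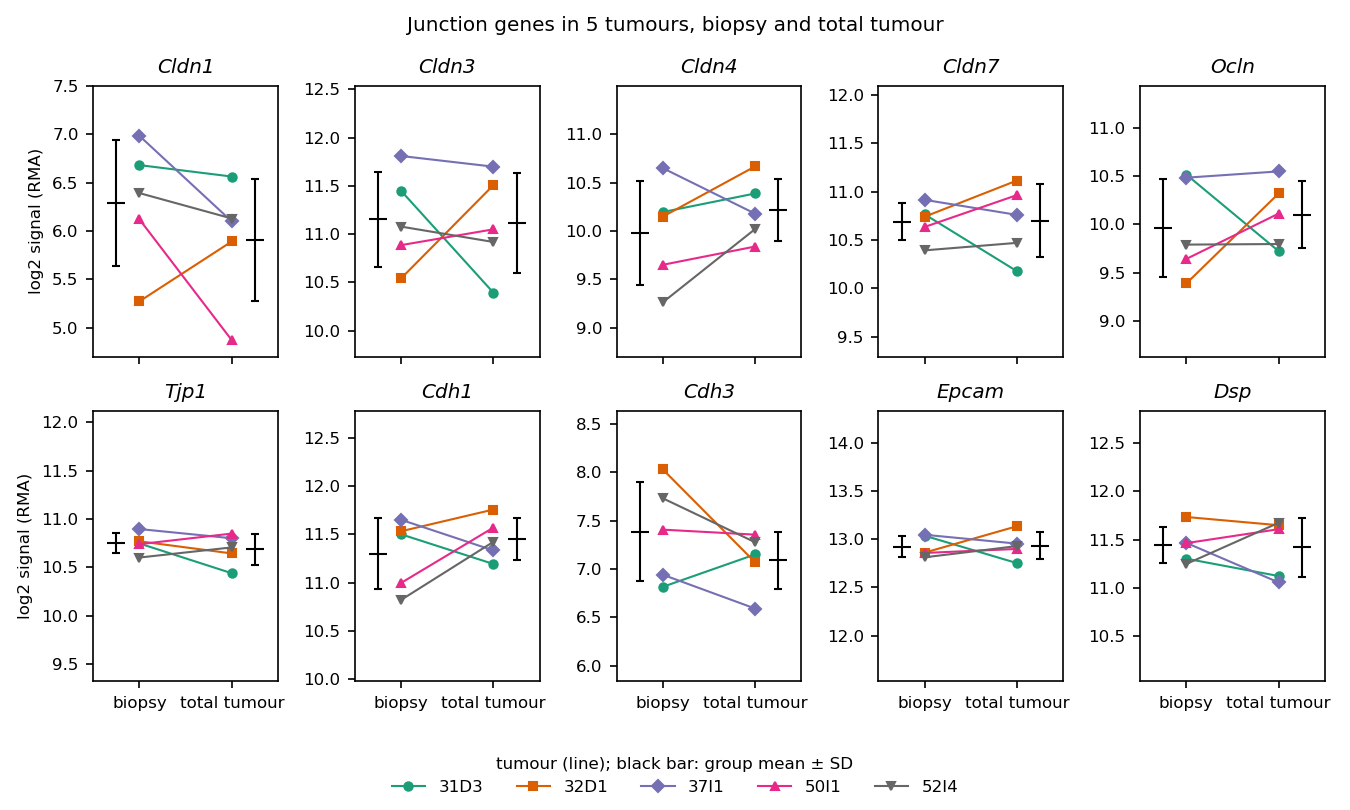
Log2 signal of each junction gene (vertical axis, each panel spanning the same range around the gene's mean) in biopsy and total tumour; a coloured line joins the 2 arrays of a tumour and black bars give group mean ± SD (n = 5). Lines cross in every panel, and Epcam and Tjp1 span only 0.38 and 0.46 over all arrays.

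Among the claudins, Cldn3 and Cldn4 encode barrier claudins common in glandular epithelium. The biopsies read 11.45 (31D3), 10.54 (32D1), 11.81 (37I1), 10.89 (50I1) and 11.08 (52I4) for Cldn3, and the total tumours 10.39, 11.51, 11.70, 11.05 and 10.92 in the same order. Tumour 31D3 was lower by 1.055 at the end and tumour 32D1 higher by 0.97, so that the tumours changed places while the group means, 11.15 ± 0.49 and 11.11 ± 0.51 (SD, n = 5), lay close together. The difference of -0.04 (SE 0.267; 95% interval -0.68 to 0.60; limma adjusted p = 0.987) was 0.21 without 31D3 and -0.29 without 32D1.

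Cldn4 read 10.20, 10.15, 10.65, 9.65 and 9.26 in the biopsies, in the order of tumours just given, and 10.39, 10.67, 10.18, 9.84 and 10.02 in the total tumours. It was higher at the end in 4 of 5 tumours, with 37I1 the exception, and the biopsies of 50I1 and 52I4 were the lowest arrays. The mean went from 9.98 ± 0.54 to 10.22 ± 0.32 (SD, n = 5), a difference of 0.24 (SE 0.182; 95% interval -0.20 to 0.68; limma adjusted p = 0.878). Without 37I1 it was 0.42, and without 52I4 it was 0.11. Cldn3 and Cldn4 are next to each other in the reference gene table, with 0 protein-coding genes between them.

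Cldn7, which is concentrated along the lateral membrane as well as in the tight junction, varied less. Its biopsies read 10.77, 10.74, 10.92, 10.64 and 10.39, and its total tumours 10.18, 11.12, 10.76, 10.97 and 10.47, in the same order of tumours. The end of 31D3 was the lowest array and that of 32D1 the highest. The difference was 0.01 (SE 0.161; 95% interval -0.38 to 0.39), so the interval reached from 0.769-fold to 1.31-fold. Its sign turned without 32D1 (-0.08), 50I1 (-0.07) or 52I4 (-0.01).

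Cldn1 encodes a barrier claudin needed for the epidermal water barrier, and it had the widest span of the 10 genes, 2.11. It read 6.68, 5.27, 6.99, 6.12 and 6.39 in the biopsies and 6.56, 5.89, 6.10, 4.87 and 6.13 in the total tumours. Total tumour 50I1 and biopsy 32D1 were low, and 4 of 5 tumours were lower at the end. The signal of total tumour 50I1, 4.87, lay under the filter limit of 5.15 and is not shown to be above background. The span and the step within 50I1 rest on that array, so their sizes are uncertain. The mean was 6.29 ± 0.65 in the biopsies and 5.91 ± 0.63 in the total tumours (SD, n = 5), a difference of -0.38 (SE 0.267; 95% interval -1.02 to 0.26; limma adjusted p = 0.873). Without 50I1 it was -0.16, and without 32D1 it was -0.63. A second probe set of Cldn1 past the filter differed by -0.20 (SE 0.286), and another, dim one by 0.01, so the 3 did not give 1 size or sign.

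Occludin, a membrane protein of the tight junction strand, read 10.52, 9.39, 10.48, 9.64 and 9.79 in the biopsies, tumours in the same order. In the total tumours Ocln read 9.72, 10.32, 10.55, 10.11 and 9.80. The biopsy of 32D1 was the lowest array, and 4 of 5 tumours were higher at the end, 52I4 by only 0.01. The group means were 9.96 ± 0.51 and 10.10 ± 0.35 (SD, n = 5), and the difference of 0.14 (SE 0.239; 95% interval -0.44 to 0.71; limma adjusted p = 0.950) was -0.06 without 32D1 and 0.37 without 31D3. The second Ocln probe set differed by 0.08 (SE 0.276) and followed the first over the arrays, with r = 0.92.

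Tjp1, the ZO-1 scaffold, stayed between 10.44 and 10.90 on all 10 arrays. Its difference was -0.06 (SE 0.101; 95% interval -0.31 to 0.18), an interval from 0.809-fold to 1.13-fold, and it ran from -0.0016 without 31D3 to -0.11 without 50I1. A dimmer probe set of Tjp1 followed this one only loosely (r = 0.44) and differed by -0.28 (SE 0.179), lower in 4 of 5 tumours.

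E-cadherin, the adhesion molecule of epithelial adherens junctions, was not called lower at the end. Cdh1 read 11.50, 11.53, 11.65, 10.997 and 10.82 in the biopsies, again from 31D3 to 52I4, and 11.19, 11.76, 11.33, 11.57 and 11.42 in the total tumours. The lowest arrays were the biopsies of 52I4 and 50I1, which are also the lowest for Cldn4. The mean was 11.30 ± 0.37 and then 11.45 ± 0.22 (SD, n = 5), a difference of 0.15 (SE 0.178; limma adjusted p = 0.922). It was 0.043 without 52I4, 0.050 without 50I1 and 0.27 without 31D3 or 37I1. Its 95% interval ran from -0.27 to 0.58, or 0.827-fold to 1.498-fold, so a fall of a 2-fold step lay outside it. The second Cdh1 probe set stayed at 3.18 or lower, under the filter limit of 5.15.

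P-cadherin, encoded by Cdh3, had the lowest adjusted p of the 10 genes, which was still 0.872 in limma. Its biopsies read 6.82, 8.03, 6.94, 7.41 and 7.73, and its total tumours 7.15, 7.07, 6.59, 7.36 and 7.28. It was lower at the end in 4 of 5 tumours, by 0.05 only in 50I1, and higher in 31D3. The mean was 7.39 ± 0.51 and then 7.09 ± 0.30 (SD, n = 5), a difference of -0.30 (SE 0.188; 95% interval -0.75 to 0.15), which was -0.13 without 32D1 and -0.46 without 31D3. Cdh1 and Cdh3 are also direct neighbours in the reference gene table, with 0 protein-coding genes between them, and their signals over the 10 arrays had r = -0.30.

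Epcam, a surface adhesion protein of epithelial cells that binds claudin-7, was the steadiest of the 10 genes. All arrays lay between 12.75 and 13.13, and the SD over arrays was larger than that of only 9.0% of the genes tested. The group means were 12.92 ± 0.11 and 12.93 ± 0.14 (SD, n = 5), with a difference of 0.01 (SE 0.109; 95% interval -0.25 to 0.27, or 0.840-fold to 1.21-fold) that was -0.05 without 32D1 and -0.02 without 52I4. The highest value on any array was 14.26, and whether bright probe sets such as this respond less steeply was not tested.

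Desmoplakin, the plaque protein that ties keratin filaments to desmosomes, read 11.30, 11.74, 11.47, 11.47 and 11.25 in the biopsies and 11.12, 11.65, 11.06, 11.61 and 11.68 in the total tumours. Dsp differed by -0.02 (SE 0.138; 95% interval -0.35 to 0.31), or by 0.02 without 31D3, 0.08 without 37I1 and -0.13 without 52I4. A dim second probe set, between 4.27 and 4.83 and so under the filter limit, was higher by 0.23 (SE 0.0878) in 5 of 5 tumours, with an unadjusted limma p of 0.0358 and a correlation with the first of only r = 0.19.

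**Figure D2:**
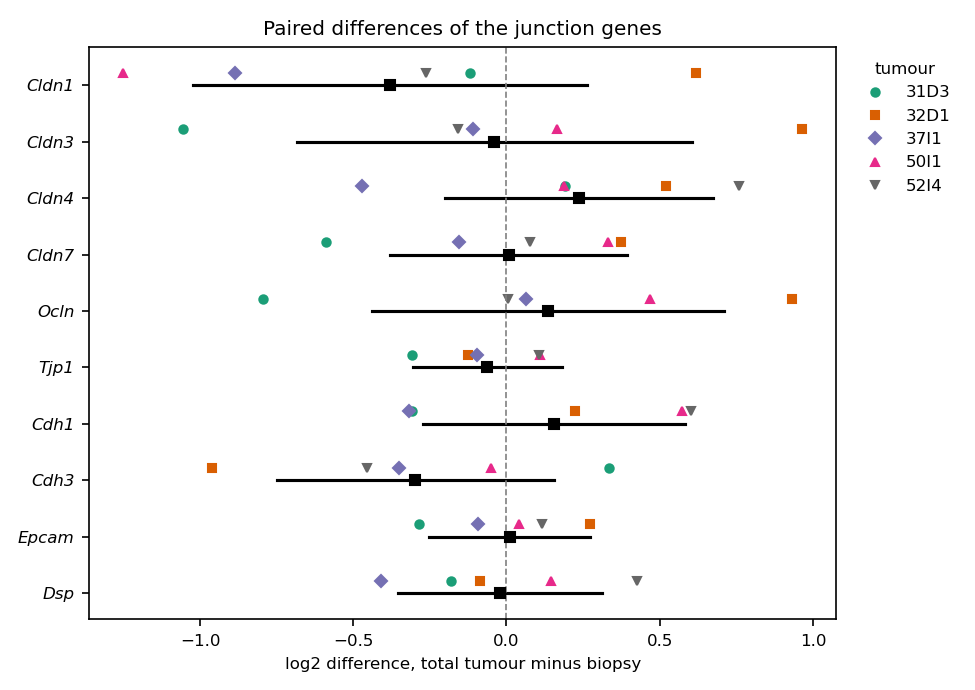
Log2 difference, total tumour minus biopsy (horizontal axis), per gene; coloured markers are the 5 tumours, black squares limma means and black lines 95% intervals. All 10 intervals include 0, and that of Cldn1 runs from -1.02 to 0.26.

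The luminal keratins, as a measure of luminal epithelium, had a mean difference of 0.22 (SE 0.0849 over 5 pairs) and were higher at the end in every tumour, by 0.04 in 32D1 to 0.48 in 50I1. The 4 keratins differed among themselves, with Krt7 at 0.41 (SE 0.266), Krt8 at 0.37 (SE 0.144), Krt18 at 0.12 (SE 0.150) and Krt19 at -0.0014 (SE 0.181), and none was called by limma. Beside them, the mean of 4 skin keratinocyte genes, those tested of 10 listed, was higher by 0.41 to 0.85 in each of the 5 tumours. Their single differences were uneven, from 0.20 to 1.42, and 0 were called. All 13 of 13 fibroblast and matrix genes had higher means (median difference 0.46, 0 called), but the tumours were split. The mean of that list differed by 0.78 in 31D3, -0.48 in 32D1, 1.87 in 37I1, -1.29 in 50I1 and 1.36 in 52I4. Taken relative to these keratins within each tumour, 9 of the 10 junction genes had a negative mean difference, as did 89.1% of all genes tested, so the count is near the background. The median was -0.23 for the junction genes and -0.22 for all genes tested. Without 31D3 the junction genes had a median of -0.072, with 6 of 10 negative. Cdh3 was lower than the keratins in 5 of 5 tumours, by -0.52 on average (SE 0.158), though by only -0.01 in 31D3, where Cdh3 itself was higher by 0.34. The keratin mean was higher at the end in every tumour, so an unchanged gene would also be lower in 5 of 5. How many of all genes were so is not given here. The exact sign-flip permutation p of Cdh3 was 0.0625 (two-sided), the smallest that 5 pairs allow, and 0.625 after Benjamini-Hochberg adjustment over the 10 genes. An unchanged gene would reach the same unadjusted p, so this p cannot show a change of Cdh3 itself. With Krt8 and Krt18 alone as the measure, the exact permutation p was 0.125 for Cdh3 and 0.0625 for Dsp (0.25 for Dsp with the 4 keratins). For Tjp1 the relative difference was -0.29 (SE 0.115; exact permutation p = 0.125), lower in 4 of 5 tumours, and for Cldn4 it was 0.02 (SE 0.252). A ratio within an array shows unequal change, and which of the 2 quantities moved was not tested.

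The 5 tumours could also be set against one another, with the 2 arrays of a tumour giving the spread. In limma's F test over tumours, 0 of the 10 junction genes passed an adjusted p of 0.05, with adjusted p from 0.515 for Cldn4 to 0.942 for Epcam, beside 16 of 18625 probe sets (0.0859%). Those 16 became at most 1 when any tumour was left out. At an unadjusted p under 0.05 the counts were 0 of 10 junction genes and 1094 of 10793 genes (10.1%).

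How the genes varied together was described by Pearson r between their signals. Over the 10 arrays it was above 0 for 31 of the 45 gene pairs, with a median of 0.35, above 0.7 for 7 and below -0.7 for 1. These are descriptions without a test, since the 10 arrays are 5 tumours read 2 times and share the array normalization. Cldn3 and Ocln had r = 0.91, and 0.86 to 0.96 when each tumour was left out in turn. Cldn7 and Epcam had r = 0.81 (0.75 to 0.91) and Cldn7 and Cdh1 r = 0.74 (0.66 to 0.81). Cldn7, Cdh1 and Epcam moved the same way as one another in 5 of 5 tumours, with lower values at the end in 31D3 and 37I1 and higher values in 32D1, 50I1 and 52I4.

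**Figure D3:**
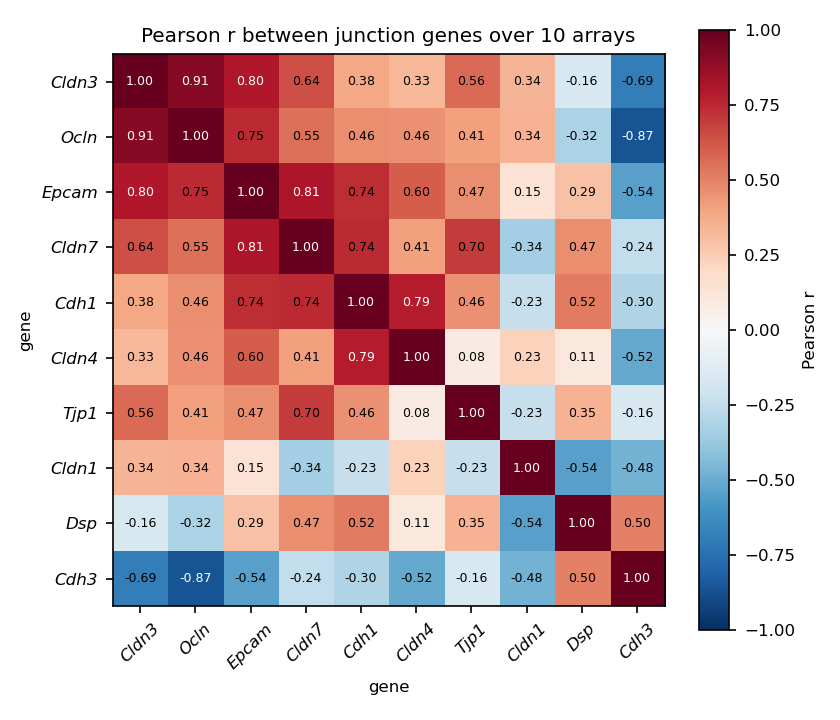
Pearson r between the signals of each pair of junction genes over the 10 arrays (colour and number). Cldn3, Ocln, Epcam, Cldn7 and Cdh1 lie above 0 with one another, and the Cdh3 row is below 0 for every gene but Dsp.

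P-cadherin went against this group. Cdh3 and Ocln had r = -0.87 (-0.91 to -0.81 with each tumour left out), and they moved in opposite directions in 5 of 5 tumours, by only 0.01 for Ocln in 52I4. Cdh3 had r = -0.69 with Cldn3, and -0.54 with Epcam. Biopsy 32D1, with the highest Cdh3 signal of 8.03 and the lowest Ocln signal of 9.39, lay at one end, and both arrays of 37I1 and the biopsy of 31D3 at the other. Dsp was the only one of the other 9 genes with which Cdh3 had a positive r (0.50).

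**Figure D4:**
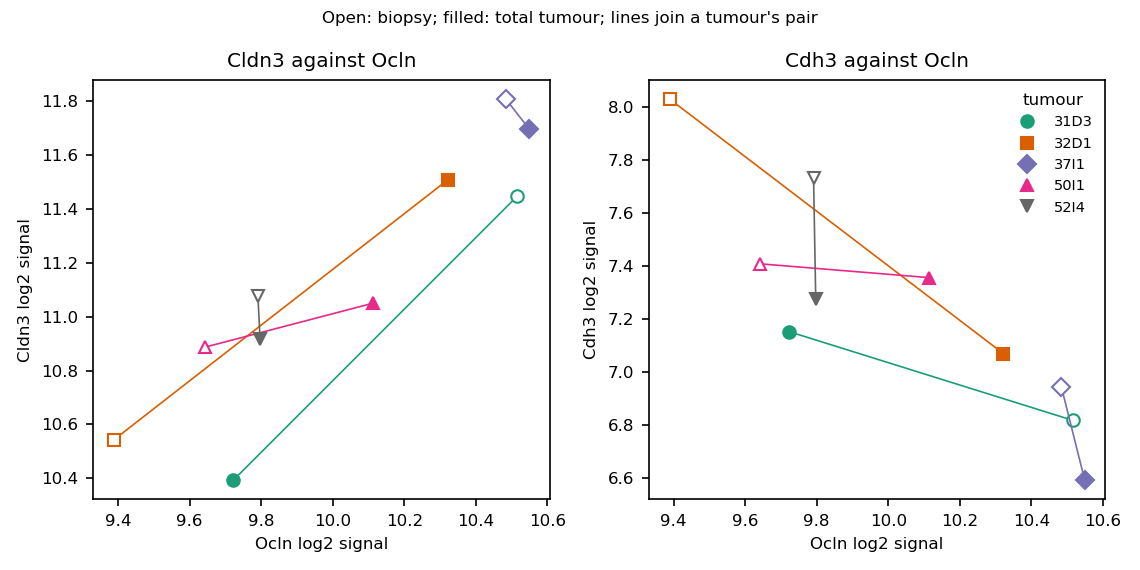
Log2 signals of Cldn3 (left) and Cdh3 (right) against Ocln on the 10 arrays; open markers are biopsies, filled markers total tumours, and lines join the pair of a tumour. Cldn3 is high where Ocln is high (r = 0.91) and Cdh3 is low there (r = -0.87).

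The stretches of DNA just before the start of these genes are shown because E-boxes of the form CAGGTG, or CACCTG when read from the other strand, are the letters that Snail and Zeb repressors of epithelial genes are known to bind. Of the 10 genes, 7 had a promoter in the RefSeq table of build GRCr8, which were all but Cldn4, Cdh1 and Cdh3. The 250 bases before the annotated start held such an E-box for 5 of the 7, which were Cldn3, Cldn7, Epcam, Ocln and Dsp, and for 15.9% of the 33469 promoters in the table. Ocln held 2, a number that 1.84% of all promoters reach or pass, and Cldn7 held 4, as do at least that many in only 10 promoters of the table. Cldn3 and Ocln are printed because they had the highest r, and Cldn7 for its number of matches, 5′ to 3′ with the E-boxes in capitals.
Cldn3 (chr12:27346548-27346797, minus strand): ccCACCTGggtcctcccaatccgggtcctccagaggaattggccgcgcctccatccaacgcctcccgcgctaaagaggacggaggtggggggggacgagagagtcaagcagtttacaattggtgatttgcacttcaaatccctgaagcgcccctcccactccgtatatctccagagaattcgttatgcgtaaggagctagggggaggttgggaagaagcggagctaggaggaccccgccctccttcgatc
Ocln (chr2:33441199-33441448, minus strand): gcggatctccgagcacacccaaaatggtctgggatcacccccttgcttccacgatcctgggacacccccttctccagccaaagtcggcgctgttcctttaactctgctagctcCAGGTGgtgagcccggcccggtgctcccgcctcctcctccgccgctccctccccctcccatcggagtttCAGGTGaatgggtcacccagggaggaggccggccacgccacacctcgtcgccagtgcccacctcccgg
Cldn7 (chr10:55188420-55188669, plus strand): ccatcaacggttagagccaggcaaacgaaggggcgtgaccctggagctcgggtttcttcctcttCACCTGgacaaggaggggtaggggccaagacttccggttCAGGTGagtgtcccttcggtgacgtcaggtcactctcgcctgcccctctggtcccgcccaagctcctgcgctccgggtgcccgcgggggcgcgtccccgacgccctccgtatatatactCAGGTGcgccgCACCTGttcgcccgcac
In Cldn7 the E-boxes begin at positions -186, -147, -28 and -17 relative to the start, in Ocln at -137 and -68, and in Cldn3 at -248. GC content was 65.6% in Cldn7, 66.4% in Ocln, 59.2% in Cldn3, 75.6% in Epcam and 75.2% in Dsp, beside a median of 51.2%. The part of base composition in the share of promoters with a match was not tested. Cldn1 (GC content 59.2%) and Tjp1 (30.4%) had no match in this window. A match is a run of letters, and these arrays do not measure binding.

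Marker lists of other cells varied with some of the junction genes. Over the 10 arrays Cldn3 had r = -0.85 with the mean of 6 mesenchymal regulators (Zeb1 among them), r = -0.71 with the fibroblast and matrix list and r = -0.65 with the endothelial list. For Ocln these were -0.78, -0.64 and -0.59, and for Cdh3 0.45, 0.32 and 0.15. Compared with the mesenchymal regulators, Cdh3 had an r of larger size with the epithelial regulators and the skin keratinocyte genes. Its r was smaller in size with the basal and myoepithelial list and with the luminal keratins. With the mean of 13 epithelial regulators, r was 0.67 for Cldn3, 0.80 for Ocln and -0.84 for Cdh3. With 4 skin keratinocyte genes it was 0.31, 0.53 and -0.72, and with the basal and myoepithelial list 0.30, 0.26 and -0.10, in the same order of genes. Biopsy 37I1, where Cldn3, Cldn1, Tjp1 and Cdh1 had their highest or next to highest signals, was the lowest array for the fibroblast list (8.39), the leukocyte list (7.64) and the mesenchymal regulators (6.41). With the luminal keratins, r was -0.22 for Cldn3, -0.18 for Ocln, 0.28 for Cdh3 and 0.42 for Cdh1. The part of stromal cells in the junction signals was not tested.

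**Figure D5:**
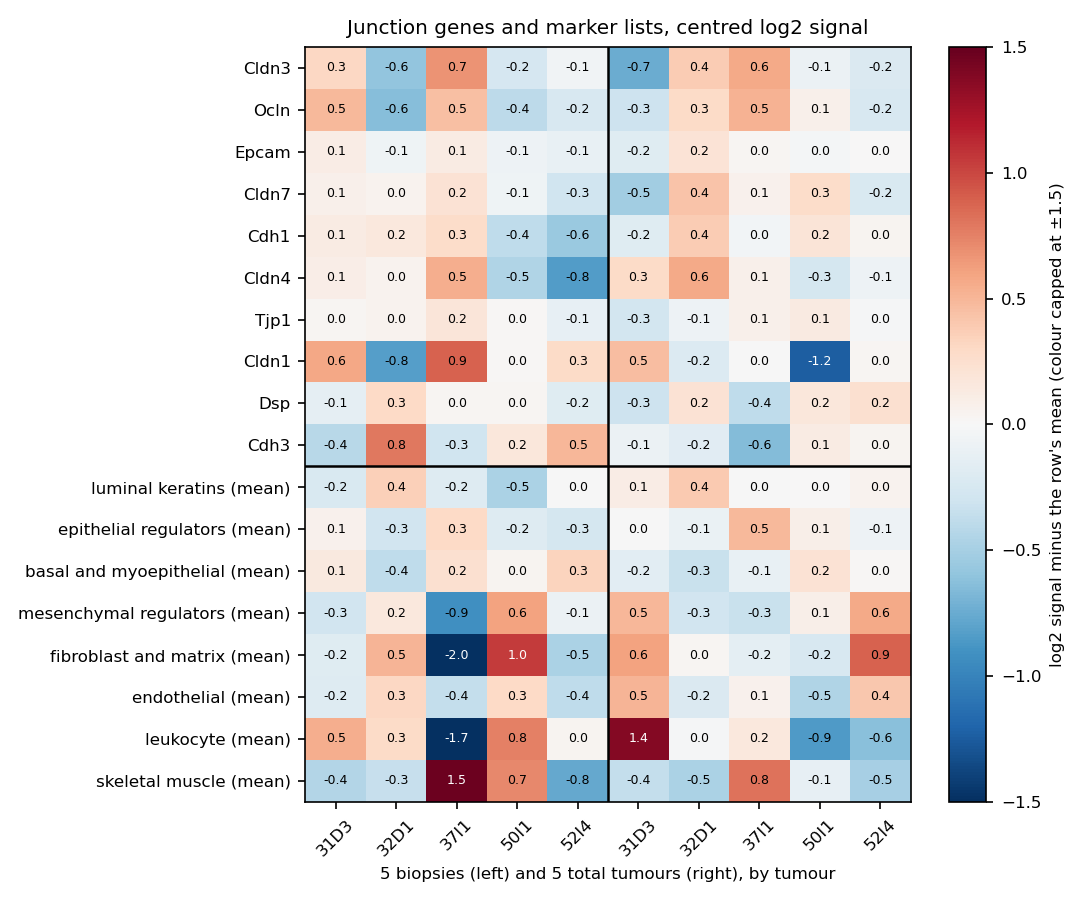
Centred log2 signal (row mean subtracted, colour capped at ±1.5) of the 10 junction genes above the line and the means of 8 marker lists below it, in 5 biopsies (left) and 5 total tumours (right). Biopsy 37I1 has high Cldn3 and Ocln beside low fibroblast and leukocyte lists, and biopsy 32D1 low Cldn3 and Ocln beside high Cdh3.

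Which genes most resembled the junction genes was asked with the mean of the 10 centred signals. The genes tested with the highest r over the 10 arrays were Sdha (0.96), Slc7a4 (0.95), Bckdhb (0.95), Tmem164 (0.94), Scap (0.94), Tle5 (0.93), LOC102548409 (0.93) and Emp2 (0.93). Those with the lowest were Rassf8 (-0.97), Ext1 (-0.96), Dcun1d2 (-0.95) and Cd55 (-0.94). Taken gene by gene, the most alike were Paxx for Cldn1 (0.92), Hsdl2 for Cldn3 (0.96), Cmpk1 for Cldn4 (0.97), Aldh7a1 for Cldn7 (0.93), Sypl1 for Cdh1 (0.97), Agps for Cdh3 (0.97), Rdx for Epcam (0.98), Irak1 for Tjp1 (0.93), Shroom3 for Ocln (0.97) and Hnrnpa2b1 for Dsp (0.95). Each was the best of 10793 genes over 10 arrays, and no test is attached.

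Of 90 further genes of tight junctions, polarity, adherens junctions and desmosomes, 61 were tested, and 0 passed in either direction in limma, with 0 at an unadjusted p under 0.05 there and 0 in the methods' paired t-test. Means were higher at the end for 32 and lower for 29, with a median difference of 0.02, and 59 of 61 lay within 0.5 of 0. In the adherens junction, the catenins differed by 0.02 for Ctnnb1 (SE 0.0878), -0.07 for Ctnna1 (SE 0.0843) and -0.12 for Ctnnd1 (SE 0.110). Ctnnb1 and Ctnna1 had SDs of at most 0.10 within a group. N-cadherin (Cdh2), which can replace E-cadherin in mesenchymal transition, read 5.32 ± 0.17 and 5.34 ± 0.15 (SD, n = 5), close to the filter limit of 5.15. Cdh11, the cadherin of fibroblasts, had the highest difference of the 61 genes, 0.60 (SE 0.325; limma adjusted p = 0.846), and ran from 6.17 in biopsy 37I1 to 9.14 in biopsy 50I1, the biopsies lowest and highest for the fibroblast list.

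Of the other claudins, 6 of 19 listed were tested. Cldn8 differed by -0.22 (SE 0.282), Cldn10 by 0.30 (SE 0.148) and the endothelial claudin Cldn5 by 0.49 (SE 0.584), each far from passing (limma adjusted p from 0.846 to 0.933). The junctional adhesion molecule F11r differed by 0.14 (SE 0.155) and cingulin, Cgn, which binds ZO-1, by -0.05 (SE 0.186). In the desmosome, 7 of 9 tested genes had higher means and 0 passed. The desmosomal cadherins Dsg2 and Dsc2 differed by 0.08 (SE 0.113) and 0.03 (SE 0.210), the plaque proteins Jup, Pkp1 and Pkp2 by 0.07 (SE 0.199), 0.26 (SE 0.257) and 0.10 (SE 0.210), and Perp, a p53 target of the desmosome, by -0.19 (SE 0.120).

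Gap junction channels, listed beside the sealing junctions, included the largest difference of the junction genes named. Gjb2, which encodes a connexin of mammary luminal cells, read 7.91, 9.30, 9.82, 8.76 and 7.25 in the biopsies and 9.23, 8.82, 10.86, 10.31 and 8.78 in the total tumours, higher in 4 of 5 tumours with 32D1 the exception. Its difference was 0.99 (SE 0.310), with an unadjusted limma p of 0.0168 and an adjusted p of 0.680, so it did not pass. Of the 7 gap junction genes tested, 0 passed, and 2 had an unadjusted p under 0.05 in limma, beside 450 of all 10793 genes (4.17%). The other was Gjb5, at 0.52 (SE 0.148; limma unadjusted p = 0.0110 and adjusted p = 0.657). It was higher in 5 of 5 tumours, and 5.83% of all genes tested went the same way in every pair. Gja1, the connexin of myoepithelium and stroma, differed by 0.09 (SE 0.0990). Among regulators, 0 of 13 tested epithelial ones and 0 of 6 mesenchymal ones passed in limma. At an unadjusted p under 0.05 there were 1 of 13 (Grhl3, higher) and 0 of 6, beside 4.17% of all genes tested. The splicing regulator Esrp1 differed by -0.16 (SE 0.153), the alveolar factor Elf5 by 0.31 (SE 0.531) and the repressor Zeb1 by 0.26 (SE 0.308). Marveld2, Cdh5, Grhl2 and Snai2 were not analysed here.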

How the data were processed

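Per the submitters' processing notes the arrays were normalized with RMA (Robust Multichip Average); the chip definition is not given in the sources used here. The table deposited by the authors holds log2 values, a scale read from their range (2.34 to 14.26). RMA places all arrays on 1 distribution, so a shift shared by most transcripts is lost. A needle sample is named at the late moment in the series text, where the sample labels say total tumour; the labels were followed.

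Control probe sets were left out, leaving 31042, of which 20826 have 1 gene in the platform annotation, 436 several and 9780 none listed. The dimmest 40% by mean signal (limit 5.15) were left out, and 18625 were tested with limma 3.58.1 (lmFit, eBayes) under R 4.3.3. The model had tumour as a block, with Benjamini-Hochberg adjustment at a threshold of 0.05. The pairing comes from the tumour names; the correlation of deviations from group means was above 0.1 in 4 of 5 pairs (-0.21 in 50I1). It is not stated if each tumour had its own rat, and p-values reflect only how far these 5 tumours spread. Between tumours, limma's F test with the moment as a term was used. The steps were tested on simulated data.

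The members and lists were chosen with earlier results of these data known. Genes named beside the members were those set out for their role, plus the 8 genes highest and 4 lowest in r with the members' mean and the most alike gene of each member; Cldn11, Gjb5 and Grhl3 were named after their values were seen. Alternatives were other filters, normalizations, variance models, array weights, probe set choices, thresholds, no block, the methods' paired t-test and leaving out each tumour. Promoter sequences are from RefSeq (GRCr8).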

Additional observations from a re-analysis of the deposited data

Results flagged for a closer look

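None of the 20 groups of junction gene values held a far-lying array by Dixon's criterion (a gap to the nearest other array above 0.71 of the group's range, for 5 arrays). Among 30 other genes named, 6 values did, out of 80 groups in all, and chance flags about 1 in 20 groups. Jup in total tumour 31D3 read 10.84, below the other total tumours (11.42 to 11.60). Perp in total tumour 37I1 read 10.72, below the others (11.18 to 11.27). Esrp1 in biopsy 37I1 read 10.70, above the others (9.83 to 9.95). Krt18 in total tumour 32D1 read 13.03, above the others (12.30 to 12.49). Col1a1 in total tumour 52I4 read 12.45, above the others (10.83 to 11.17). Acta1 in total tumour 37I1 read 9.48, above the others (4.04 to 4.76).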

How the results depend on the processing

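No junction gene was called under any alternative, with a lowest adjusted p of 0.577 (limma), and the count of probe sets changed stayed at 0. Without the replicate block the counts were also 0 probe sets and 0 junction genes, with a median difference of -0.01, so the pairing changed no call. The probe sets differing between tumours were 16, and 26 with no filter, 28 at an adjusted p of 0.1 and 0 to 1 with a tumour left out. Of 100 gene differences recomputed under the 10 alternatives that can move a mean difference in some genes, 85 kept their direction. The other 15 were reversed, 9 of them with a tumour left out. Some of the 85 were fixed in advance. Cldn3, Cldn4, Cldn7, Cdh3 and Epcam have a single probe set and could not move under the probe set choices. For Cdh1 and Dsp the probe set of largest variance was the main one. Dsp was 0.012 with median centring, 0.089 with array quality weights and 0.10 with the mean of its probe sets. Epcam was -0.030 with quantile normalization, Cldn3 0.012 with array quality weights, and Cldn1 0.014 with the probe set of largest variance. With each tumour left out the range was -0.29 to 0.21 for Cldn3, -0.084 to 0.16 for Cldn7, -0.054 to 0.085 for Epcam, -0.063 to 0.37 for Ocln, -0.13 to 0.076 for Dsp and -0.07 to 0.12 for the median of the 10 genes. Relative to the luminal keratins it was -0.33 to -0.072 for the median of the 10 genes, -0.56 to 0.022 for Cldn3, -0.16 to 0.19 for Cldn4, -0.22 to 0.078 for Cdh1 and -0.33 to 0.18 for Ocln, and Cldn4 was -0.0037 with Krt8 and Krt18 alone. The cause was not tested. The dim further probe sets of Cdh1, Dsp and Cldn1 lie under the filter limit.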

Other observations

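Cldn11, a claudin known from myelin and from the Sertoli cell barrier, was chosen after its values were seen because it had the lowest difference among the 61 further junction genes (-0.59, not called). It read 9.69 in the biopsy of 31D3 and 4.03 in its total tumour, 7.72 and 6.49 in the biopsy and total tumour of 52I4, and 4.20 and 7.77 in those of 50I1. Tumours 32D1 and 37I1 lay between 3.65 and 4.29 at both moments, and so did the lower arrays of 31D3 and 50I1. A second Cldn11 probe set, with a mean under the filter limit, had its highest signal, 6.21, in the same biopsy of 31D3. It did not follow the other high arrays, at 3.98 and 3.78 in the biopsy and total tumour of 52I4 and 4.15 in total tumour 50I1. Signals of about 4 lie under the filter limit of 5.15 and are not shown to be above background, so no size of step is given for 31D3 or 50I1.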
